A study of Mus musculus with 4 samples.

Results

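The BCL2 family of survival and death genes was followed in tumour-sorted myeloid-derived suppressor cells (MDSCs) through 10 members chosen by name. They were the pro-survival genes Mcl1, Bcl2a1a, Bcl2a1b, Bcl2a1d, Bcl2l1 and Bcl2, the pore-forming effectors Bax and Bak1, and the BH3-only genes Bcl2l11 and Bid. All 10 were among the 17476 genes of the count table, and all 10 were among the 14239 genes with enough reads to test.

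BCL2 proteins decide whether the outer mitochondrial membrane is opened. BAX and BAK1 form the pore that releases cytochrome c and starts caspase activation, BH3-only proteins such as BIM (from Bcl2l11) and BID trigger them, and MCL1, A1 (from the Bcl2a1 genes), BCL-XL (from Bcl2l1) and BCL2 bind both kinds of protein and hold them in check. Neutrophils and related myeloid cells are short-lived and are known to depend on MCL1, a protein with rapid turnover. A1 is an inducible protein of blood cells whose genes are known targets of NF-kB.

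MDSCs, immature myeloid cells of granulocytic or monocytic kind that dampen T cell responses, were differentiated in culture from bone marrow of C57BL/6 mice (WT) or of mice with a mutated Trem2 gene (TREM2mut), a lipid-sensing myeloid receptor. The strain label was C57BL/6 for both, and what the Trem2 mutation changes in the gene was not stated. They were injected into NRG males, immunodeficient recipients challenged at 6 weeks of age with TRAMP-C1, a mouse prostate cancer line, under the skin. Injection came 4 weeks after the challenge, the mice were killed 6 h later, the tumours were digested for 45 minutes, and CD45+ CD11B+ GR1+ cells were sorted. That gate holds no marker that parts injected cells from myeloid cells of the NRG host. Each genotype had 2 libraries, called WT 1, WT 2, Trem2 mutant 1 and Trem2 mutant 3 after their columns. Nothing says that the 2 libraries of a genotype were separate animals or cultures, so the tests measure the spread between libraries, which may be technical.

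Libraries held between 8037733 and 10306674 reads. Trem2 itself had 406 and 477 reads in WT and 191 and 195 in the mutant, a log2 fold change of -1.14 (SE 0.125, adjusted p = 0.00157). Scaled by library totals alone, the mutant pair differed more than the WT pair. The median squared difference between the 2 libraries was 6.20 times what counting noise gives in the mutant and 2.01 times in WT. A single noncoding gene, Gm42418, took 13.9% of reads in Trem2 mutant 1 and at most 1.04% in the others. The ratio of 6.20 includes any offset that this brings between library totals. TMM factors, not used for that ratio, were 0.811 and 0.949 in the mutant and 1.15 and 1.13 in WT. Levels below are normalised read counts, CPM after TMM scaling of the libraries, with the mean ± SD over 2 libraries. Fold changes are Trem2 mutant over WT on the log2 scale, from edgeR's quasi-likelihood test with Benjamini-Hochberg adjustment over all genes tested. A gene was called changed at an adjusted p under 0.05.

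The 3 Bcl2a1 members are near-identical copies on chromosome 9, so their reads must be read with their sequences in view. Over the 516 coding bases of the GENCODE M21 models (GRCm38), Bcl2a1a and Bcl2a1b differed at 11 positions (97.9% identity), Bcl2a1a and Bcl2a1d at 7 (98.6%), and Bcl2a1b and Bcl2a1d at 6 (98.8%). In all, 12 coding positions varied among the 3 copies, and 6 of them lay in the first 75 bases, which is as long as the 75-cycle sequencing kit allows a read to be. That stretch is shown from the start codon, with the bases that differ among the copies in capitals, at chr9:88957051-88957125 (plus strand), chr9:89199360-89199434 (plus strand) and chr9:88731645-88731719 (minus strand) for Bcl2a1a, Bcl2a1b and Bcl2a1d in turn.
Bcl2a1a: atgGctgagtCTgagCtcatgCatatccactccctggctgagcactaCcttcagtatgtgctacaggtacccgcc
Bcl2a1b: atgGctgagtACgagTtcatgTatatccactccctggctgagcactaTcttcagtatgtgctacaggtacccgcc
Bcl2a1d: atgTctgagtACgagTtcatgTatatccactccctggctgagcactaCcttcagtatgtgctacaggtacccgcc
By contrast, coding bases 95 to 311, a run of 217, were the same in all 3 copies, so a 75-base read from there matches each of them equally. Of all 75-base windows of the transcript models, 44.8% were unique to Bcl2a1a, 31.6% to Bcl2a1b and 32.4% to Bcl2a1d. One more copy, Bcl2a1c, has 96.2% unique windows. Bcl2a1b also shares 49.1% of its exon bases with the same-strand gene model Gm29094. The sources used here do not say how reads that match several copies were counted, so values of the single copies are uncertain and the sum over the 4 copies is given beside them.

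The bases upstream of the 3 copies are also alike. In the RefSeq promoter table (GRCm38.p6, 250 bases before to 50 after the start), entries were found for every member, 13 in all. The stretches below hold the letters GAGGAAGT, a form of the site bound by PU.1, the main transcription factor of myeloid cells, shown in capitals. They lie at chr9:88956776-88956875 (plus strand) for Bcl2a1a and chr9:88731915-88731994 (minus strand) for Bcl2a1d.
Bcl2a1a: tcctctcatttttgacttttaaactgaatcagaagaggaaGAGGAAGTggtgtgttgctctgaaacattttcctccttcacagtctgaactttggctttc
Bcl2a1d: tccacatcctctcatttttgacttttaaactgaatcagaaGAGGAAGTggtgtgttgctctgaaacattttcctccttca
The 100 bases of Bcl2a1b at chr9:89199085-89199184 were identical to those of Bcl2a1a. The letters GAGGAA stand 2 times in the stretch of Bcl2a1a and Bcl2a1b and 1 time in that of Bcl2a1d. GAGGAAGT was in 3.20% of 32851 promoters, searched on both strands, and among the members also in Bak1. A match to an AP-1-like pattern, TGANTCA, lies a few bases upstream of it without overlapping it. That pattern allows any middle base, and the 3 copies hold TGAATCA there. Among the members TGANTCA was in the 3 Bcl2a1 copies only, against 7.81% of all promoters. Of the other motifs searched, the NF-kB motif was in Bcl2l1 (8.46% of all promoters), the E-box CACGTG in Bax (7.15%), the FOXO motif GTAAACA in Bcl2l11 (3.65%) and the STAT motif TTCNNNGAA in no member (8.30%). A match describes letters in this window and does not show binding.

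Of the 10 members, 1 passed the test: Bax was lower in the Trem2 mutant. No pro-survival member was called, although 5 of the 6 lay above 0, or 4 where only library totals set the scale, and their median log2 fold change was 0.38. The 4 pro-death members had a median of -0.11. For comparison, the median over all genes tested was -0.02, and 13.2% of all genes were called, 9.55% higher and 3.6% lower. The members' counts, 0 of 10 higher and 1 of 10 lower, stand beside those shares. In 4 members both mutant libraries lay above both WT libraries, and in 3 both lay below, against 28.9% and 31.7% of all genes. In bulk libraries, a change in the share of cells that express a gene and a change in its RNA per cell cannot be told apart.

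**Figure D1:**
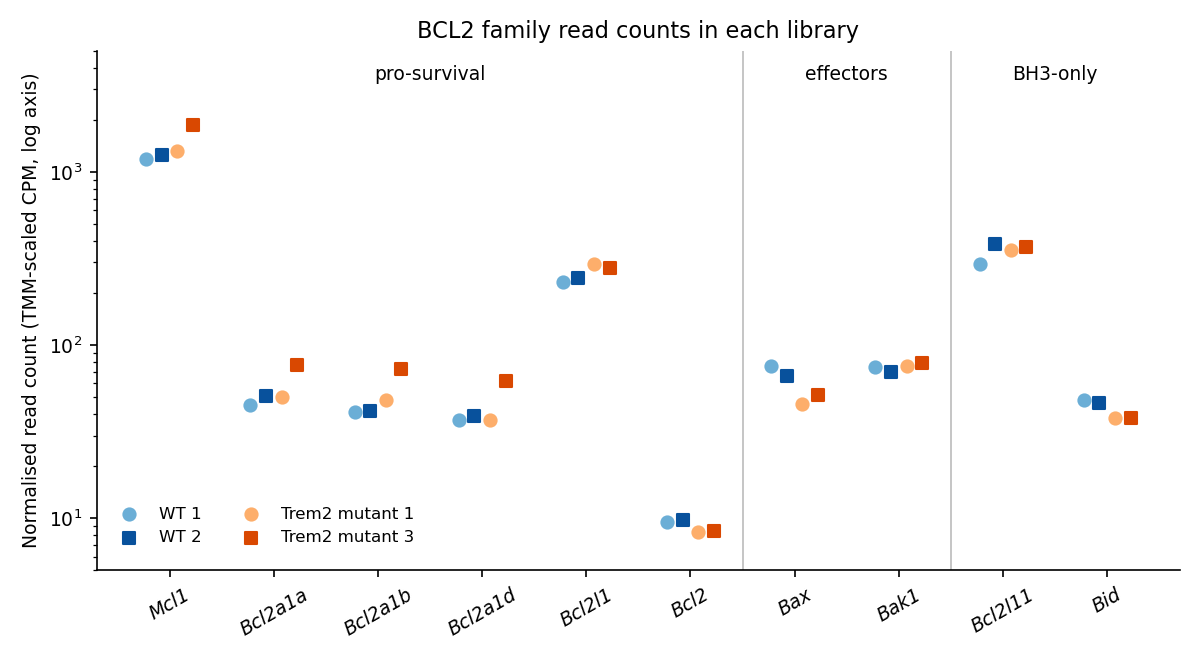
Normalised read counts (CPM, log axis) of the 10 members in each of the 4 libraries, 1 point per library, grouped by role. Mcl1 is the most abundant by read count, Trem2 mutant 3 is the highest library for Mcl1 and the 3 Bcl2a1 copies, and both mutant libraries lie below both WT libraries for Bcl2, Bax and Bid.

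Mcl1, which holds BAK1 and BIM in check, was by far the most abundant member. Divided by the length of the exon model (RPKM), its level was 355 in WT and 465 in the mutant, above 99.5% of all genes tested. Mcl1 (ENSMUSG00000038612, chr3:95658788-95663176, plus strand) had 1182 and 1247 CPM in WT 1 and WT 2 and 1322 and 1855 in Trem2 mutant 1 and Trem2 mutant 3. The groups did not overlap, yet the excess lay mostly in 1 library: Trem2 mutant 1 was 1.09 times the WT mean and Trem2 mutant 3 was 1.53 times. Means were 1215 ± 46.4 in WT and 1589 ± 377 in the mutant, a log2 fold change of 0.39 (SE 0.160, 95% interval 0.017 to 0.758). It did not pass the test over all genes (adjusted p = 0.151). Scaled by library totals alone, which moved the median of all genes to -0.40, the values were 0.03 for Mcl1 and 0.06, 0.20 and 0.03 for Bcl2a1a, Bcl2a1b and Bcl2a1d.

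As for Mcl1, Trem2 mutant 3 was the highest library for each Bcl2a1 copy. Bcl2a1a (ENSMUSG00000102037, chr9:88956900-88962419) had 45.1 and 50.5 CPM in WT and 50.3 and 76.5 in the mutant. Bcl2a1b (ENSMUSG00000089929, chr9:89199209-89207827) had 41.0 and 41.4 CPM in WT and 48.3 and 72.4 in the mutant. Bcl2a1d (ENSMUSG00000099974, chr9:88723285-88731914) had 37.0 and 39.0 CPM in WT and 36.8 and 61.7 in the mutant. In each copy Trem2 mutant 3 stood above the other 3 libraries, while Trem2 mutant 1 lay inside or just below the WT range for Bcl2a1a and Bcl2a1d and above it for Bcl2a1b. Log2 fold changes were 0.41 (SE 0.182, adjusted p = 0.177), 0.55 (SE 0.176, adjusted p = 0.0787) and 0.38 (SE 0.213, adjusted p = 0.276) for Bcl2a1a, Bcl2a1b and Bcl2a1d.

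Summing the 4 copies removes the question of which copy a counted read belongs to. If reads matching several copies were left uncounted, they are missing from the sum as well. The sum had 1144 and 1210 reads in WT and 1136 and 1973 in the mutant, or 124, 132, 136 and 212 CPM. Its log2 fold change was 0.44 (SE 0.181, 95% interval 0.0195 to 0.860, adjusted p = 0.151), with no overlap between groups. The share of reads given to each copy hardly differed between libraries. Bcl2a1a took between 36.1% and 38.1%, Bcl2a1b between 31.2% and 35.5%, Bcl2a1d between 27.0% and 29.7%, and Bcl2a1c between 0.528% and 1.24%, with 6 to 15 reads. As counted, no library owed its Bcl2a1 total to 1 copy alone. These shares cannot show which copy was expressed, because the handling of reads that match several copies is not known.

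**Figure D2:**
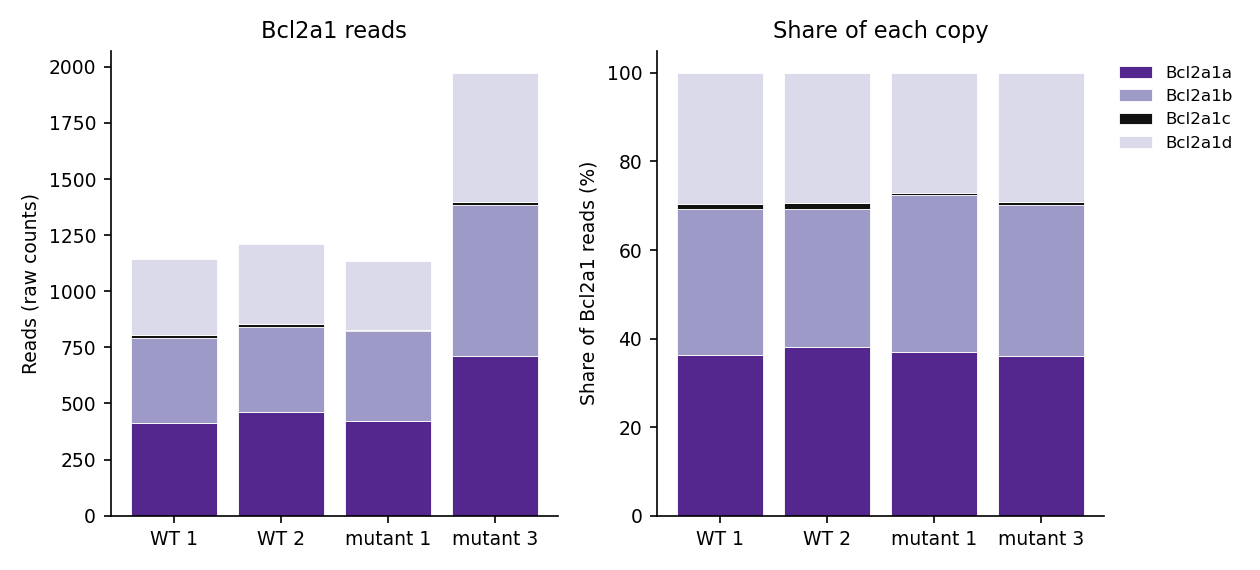
Reads assigned to the 4 Bcl2a1 copies in each library as stacked raw counts (left) and as percent of all Bcl2a1 reads (right). The total is 1973 in Trem2 mutant 3 and between 1136 and 1210 elsewhere, while the share of Bcl2a1a stays between 36.1% and 38.1%.

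Bcl2l1, the gene of BCL-XL, differed from Mcl1 and Bcl2a1 in having close mutant libraries. It (ENSMUSG00000007659, chr2:152780668-152831728, minus strand) had 232 and 245 CPM in WT and 293 and 278 in the mutant, with Trem2 mutant 1 the highest. Means were 239 ± 9.39 and 285 ± 9.95, a log2 fold change of 0.26 (SE 0.0822, adjusted p = 0.0794), just short of the threshold. Under library totals the value for Bcl2l1 turned to -0.12. Bcl2 itself was scarce. It (ENSMUSG00000057329, chr1:106538178-106714274, minus strand) had 88 and 89 reads in WT and 70 and 79 in the mutant, or 1.05 and 0.921 RPKM on average. Its 9.57 and 9.74 CPM in WT lay above 8.39 and 8.49 CPM in the mutant, a log2 fold change of -0.19 whose interval of -0.615 to 0.227 includes 0 (adjusted p = 0.512).

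Of the effectors, Bax fell and Bak1 was not called. Bax (ENSMUSG00000003873, chr7:45461697-45466898, minus strand) had 695 and 604 reads in WT and 382 and 481 in the mutant. In CPM these were 75.6 and 66.1 against 45.8 and 51.7, so both mutant libraries were below both WT libraries, and Trem2 mutant 1 was the lowest. Means were 70.9 ± 6.71 and 48.7 ± 4.19, which is 1.45-fold lower in the mutant (log2 fold change -0.54, SE 0.109, 95% interval -0.791 to -0.287, adjusted p = 0.0175). The call was lost without WT 1, where the value was -0.44 (adjusted p = 0.169). It held without WT 2 (-0.63, adjusted p = 0.0422), without Trem2 mutant 1 (-0.45, adjusted p = 0.0128) and without Trem2 mutant 3 (-0.61, adjusted p = 0.00146), and was larger under library totals (-0.91). Bax shares 12.2% of its exon bases with the same-strand gene model Gm45808.

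Bak1, the other pore protein and a main partner of MCL1, was nearly level. It (ENSMUSG00000057789, chr17:27019810-27029009, minus strand) had 75.0 and 70.2 CPM in WT and 75.8 and 78.6 in the mutant. The log2 fold change was 0.09, with an interval of -0.107 to 0.286 (adjusted p = 0.519), and -0.28 with scaling by library totals. A difference of the size seen in Bax lies outside that interval. The opposite-strand gene Ggnbp1, with 122 to 153 reads, overlaps 25.5% of Bak1's exon bases, against 633 to 731 reads of Bak1.

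Neither BH3-only member was called. Bcl2l11, the gene of BIM, a strong trigger of death in myeloid cells deprived of growth factors, had 294 and 384 CPM in WT and 352 and 366 in the mutant. Here it was the WT pair that spread, and both mutant values lay between the 2 WT values. Bcl2l11 (ENSMUSG00000027381, chr2:128126038-128162547, plus strand) had a log2 fold change of 0.08 (SE 0.127, adjusted p = 0.707), which was -0.10 without WT 1 and -0.29 with scaling by library totals.

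Bid links death receptors to the mitochondria once caspase-8 has cut its protein. It (ENSMUSG00000004446, chr6:120891930-120916853, minus strand) had 48.2 and 46.1 CPM in WT and 38.0 and 38.2 in the mutant. The 2 mutant libraries were nearly equal and both were below WT. Means were 47.1 ± 1.49 and 38.1 ± 0.126, a log2 fold change of -0.31 (SE 0.0962, 95% interval -0.532 to -0.085, adjusted p = 0.0748). It passed the threshold only under scaling by library totals (-0.68, adjusted p = 0.00591). The opposite-strand neighbour Bcl2l13 overlaps 17.7% of Bid's exon bases, and its 450 to 516 reads exceed the 317 to 443 of Bid, so without a known strand setting the 2 genes may share reads.

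**Figure D3:**
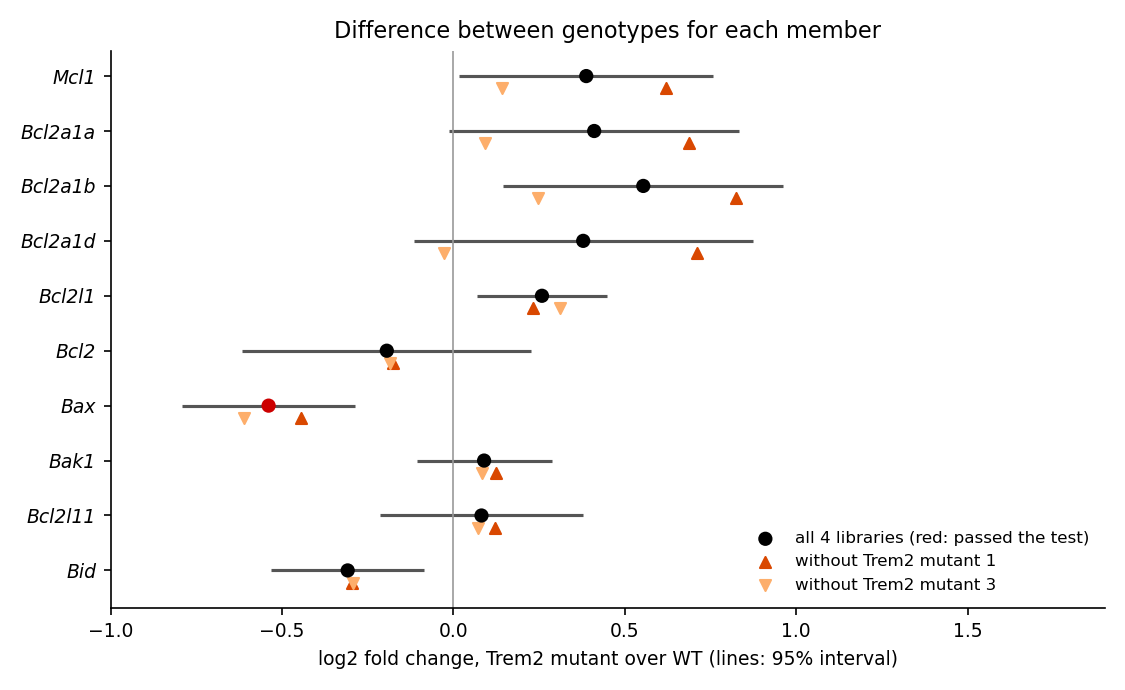
Log2 fold change of each member, Trem2 mutant over WT, with its 95% interval (line) from all 4 libraries, and the values with 1 mutant library left out (triangles). Bax in red is the member that passed the test. The upward and downward triangles part widely for Mcl1 and the Bcl2a1 copies and little for Bcl2, Bak1, Bcl2l11 and Bid. Under scaling by library totals Bcl2l1, Bak1 and Bcl2l11 turn negative.

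Leaving out either mutant library moved Mcl1 and the Bcl2a1 copies far more than the other members. Without Trem2 mutant 1, 4 members were called higher, Mcl1 at 0.62 (adjusted p = 0.000479), Bcl2a1a at 0.69 (adjusted p = 0.000356), Bcl2a1b at 0.82 (adjusted p = 5.57e-05) and Bcl2a1d at 0.71 (adjusted p = 0.000347), where 9.98% of all genes were called higher and 4.07% lower. Without Trem2 mutant 3 the same genes had values of 0.14, 0.092, 0.25 and -0.028 and none of them was called, and Bcl2l1 was the 1 member called higher (0.31, adjusted p = 0.0316), where 14.2% of all genes were called higher and 6.2% lower. Bax was called lower in both fits. With 1 mutant library left, the spread within groups comes from the WT pair alone, whose libraries lie closer together, and the lone library is assumed to vary like WT. Trem2 mutant 3 was the highest of the 4 libraries for 5 of the 10 members, 4 of them pro-survival, and for 2929 of all genes tested (20.6%).

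**Figure D4:**
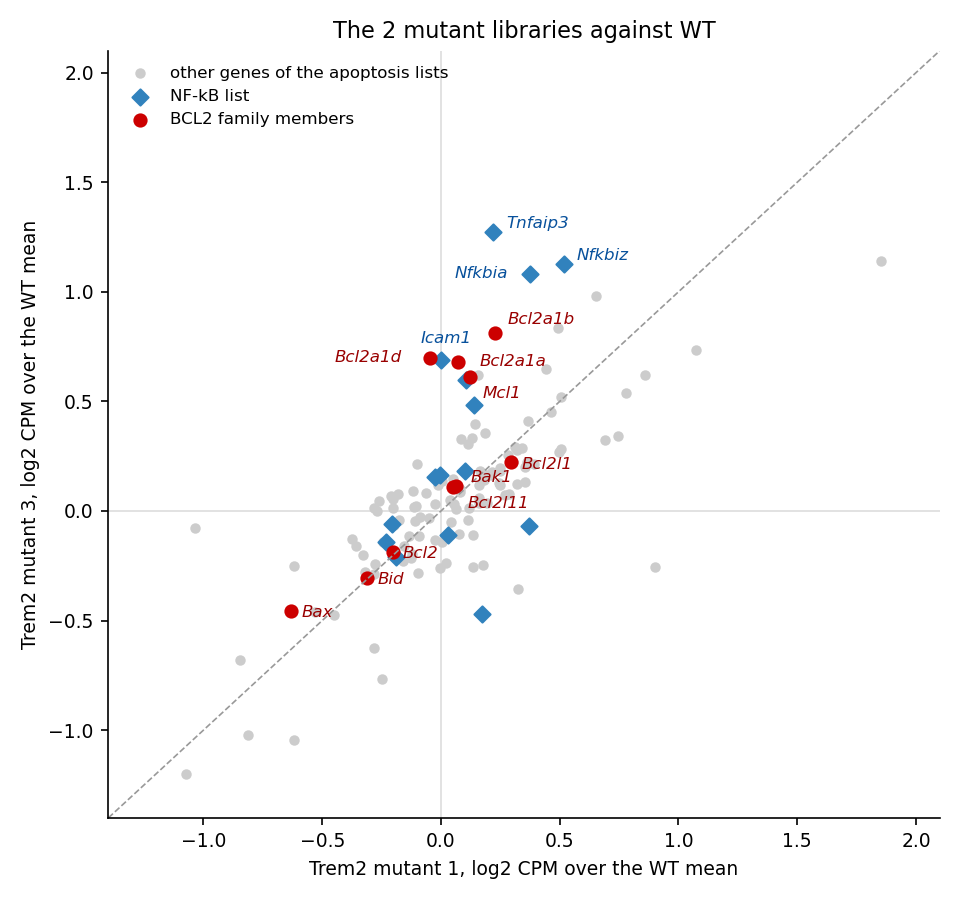
Each mutant library against the mean of WT (log2 of the CPM ratio), Trem2 mutant 1 on the horizontal and Trem2 mutant 3 on the vertical axis, for the members (red), the NF-kB list (blue) and the other listed apoptosis genes (grey). The dashed line marks equal values. Mcl1, the Bcl2a1 copies, Tnfaip3, Nfkbia, Nfkbiz and Icam1 stand above it, whereas Bax, Bid, Bcl2 and Bcl2l1 lie close to it.

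Levels can be ranked between genes only per length. The places of the single Bcl2a1 copies are uncertain, because how reads matching several copies were counted is not known. In RPKM, the WT order was Mcl1 (355), Bcl2a1a (58.4), Bcl2l1 (52.0), Bcl2a1b (50.4), Bax (45.0), Bcl2a1d (44.0), Bcl2l11 (42.3), Bak1 (30.1), Bid (13.3) and Bcl2 (1.05). Within it the ranges of Bcl2l1 and Bcl2a1b overlapped, as did those of Bax, Bcl2a1d and Bcl2l11. In the mutant, Mcl1 (465) was followed by Bcl2a1a (77.4), Bcl2a1b (73.9), Bcl2l1 (62.3), Bcl2a1d (57.0) and Bcl2l11 (44.7), each overlapping the next after Mcl1. Bak1 (32.1), Bax (30.9), Bid (10.7) and Bcl2 (0.921) came last. Bax thus stood above Bak1 in both WT libraries, while in the mutant the ranges of the 2 effectors overlapped.

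Ratios within a library set survival against death without any scaling between libraries. The length-scaled ratio of Mcl1 to Bax was 7.21 and 8.70 in WT and 13.3 and 16.5 in the mutant, a 1.88-fold difference of the geometric means. For these ratios the Bcl2a1 sum held Bcl2a1a, Bcl2a1b and Bcl2a1d, without Bcl2a1c, over their mean length. Any reads left uncounted for matching several copies are missing from this sum. Its ratio to Bax was 3.08 and 3.74 in WT and 5.60 and 7.71 in the mutant, a 1.93-fold difference. That of Bcl2l1 to Bax was 1.05 and 1.28 in WT and 2.20 and 1.85 in the mutant. All 3 were higher in both mutant libraries, but Bax is their shared denominator, and the ratio to Bax was likewise higher without overlap for 74.3% of all genes. Against Bid, the ratio of Mcl1 was 25.5 and 28.1 in WT and 36.2 and 50.5 in the mutant, with 58.1% of all genes likewise higher.

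Against the 2 other pro-death members the ratios of Mcl1 and of the Bcl2a1 sum without Bcl2a1c overlapped between groups. Mcl1 to Bak1 was 11.1 and 12.5 in WT and 12.3 and 16.6 in the mutant, overlapping, and 21.4% of all genes were higher against Bak1 without overlap. Mcl1 to Bcl2l11 was 9.44 and 7.62 in WT and 8.83 and 11.9 in the mutant, also overlapping, and 17% of all genes were higher against Bcl2l11 without overlap. Bcl2l1 to Bak1 was 1.62 and 1.83 in WT and 2.02 and 1.86 in the mutant, higher without overlap, while Bcl2l1 to Bcl2l11 overlapped. The ratios of Bcl2 to Bak1 and to Bcl2l11 were lower in both mutant libraries. The share of all genes likewise lower was not counted. Of the 16 ratios formed, 9 were higher and 2 lower without overlap, and 5 overlapped. An exact two-sided permutation test with 2 libraries against 2 cannot go below p = 0.333, which the 11 ratios without overlap reached (0.485 after adjustment over the 16), so none could pass.

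The rest of the BCL2 family gave 2 calls. Bmf, a BH3-only gene whose protein senses cytoskeletal and attachment stress, had 30.6 and 28.6 CPM in WT and 20.5 and 21.5 in the mutant, lower in both (log2 fold change -0.49, SE 0.115, adjusted p = 0.0308). The call was lost without WT 1 (-0.44, adjusted p = 0.223), WT 2 (-0.54, adjusted p = 0.108) or Trem2 mutant 1 (-0.45, adjusted p = 0.0521), with values of similar size. Bnip3, a hypoxia-induced BH3-like gene linked to mitophagy, had 39.3 and 46.5 CPM in WT and 77.9 and 65.9 in the mutant, higher in both (log2 fold change 0.74, SE 0.124, adjusted p = 0.00835, and 0.0759 without WT 1).

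Its relative Bnip3l was level at 0.01. Among the remaining BH3-only genes, Bbc3, the gene of PUMA, had a log2 fold change of -0.45 (adjusted p = 0.114), Bad -0.12 and Pmaip1, the gene of NOXA, 0.05. The pro-survival gene Bcl2l2 had -0.02, and the scarce Bcl2a1c -0.45. Of the BCL2-related genes, Bcl2l12 had -0.49, Bcl2l13 0.19, Bag1 -0.26, Bag3 0.17, Bag4 -0.25, Bcap31 0.08 and Tmbim6 0.10, none called. Bok, Bcl2l14 and Bcl2l15 had too few reads to test, and Bcl2l10, Bik, Hrk and Moap1 were not analysed here.

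Around the family, 135 further genes of apoptosis and survival signalling were listed and 123 were tested. Of these 12 were called higher and 2 lower, near or below the 9.55% and 3.6% of all genes, with a median of 0.07. The counts were 3 higher and 34 lower with scaling by library totals. The lower genes were Bmf and Htra2, a mitochondrial protease that is released with cytochrome c. Htra2 had 71.4 and 70.2 CPM in WT and 40.2 and 34.8 in the mutant (log2 fold change -0.92, SE 0.103, adjusted p = 0.00167). It was the 1 call of the 14 that held with each of the 4 libraries left out in turn, all with an adjusted p of at most 0.0169.

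Htra2 was the 1 lower call among 14 apoptosome and caspase genes, whose median was 0.02. Apaf1, which builds the apoptosome, had 182 and 183 CPM in WT and 168 and 185 in the mutant, a value of -0.05, and was not called.

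Inhibitors of apoptosis gave 4 higher calls of 9, with a median of 0.30. They were Birc5 at 1.53 (17, 17, 56 and 38 reads, adjusted p = 0.0281), Naip6 at 0.91, Naip5 at 0.66 and Naip2 at 0.30. Birc5 encodes survivin, a protein of dividing cells, and the Naip genes, which are close copies of each other and may exchange reads, encode sensors of bacterial proteins. Xiap, the direct caspase inhibitor, had 0.07 and was not called.

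**Figure D5:**
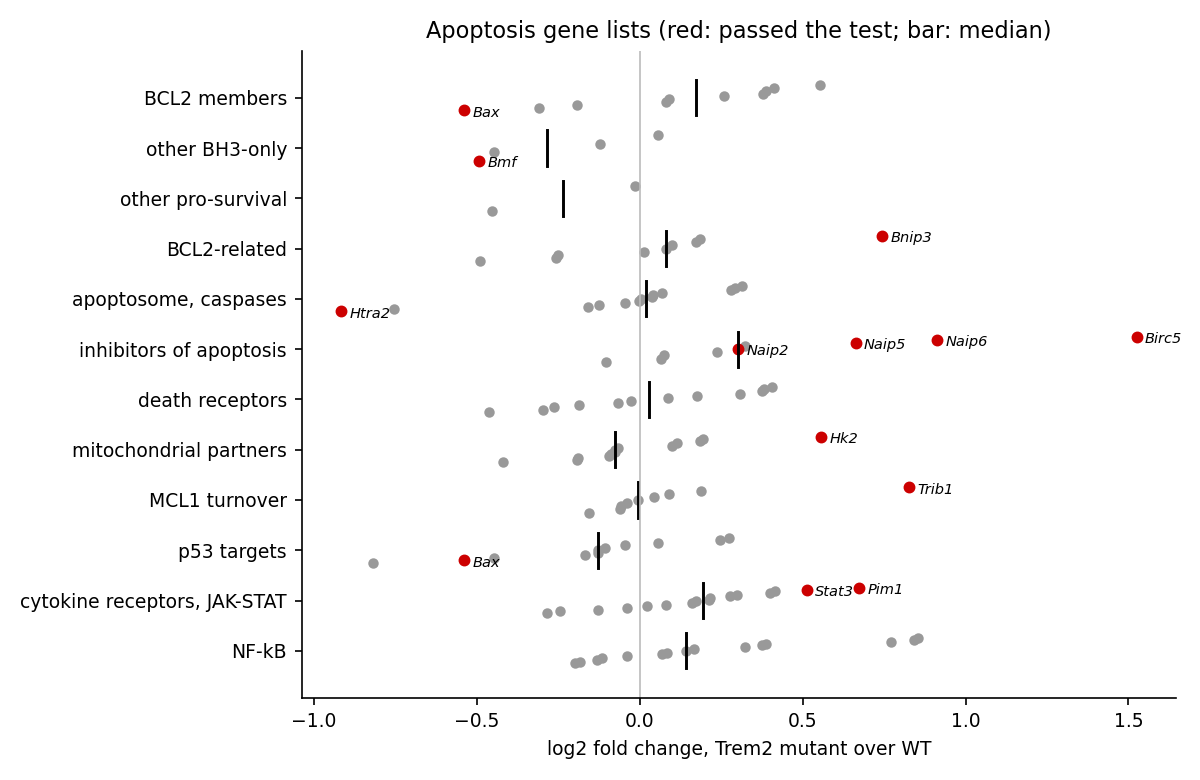
Log2 fold changes, Trem2 mutant over WT, of the members and of 11 further gene lists, 1 point per gene, with the median of the whole list as a bar and called genes in red. A gene not reported here has no point. Most points lie within 0.5 of 0 in either direction, and Bax appears a second time among the p53 targets. With scaling by library totals the listed genes that are no member shift to a median of -0.30.

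None of 12 death receptor and adaptor genes was called (median 0.03). Of 13 mitochondrial partners 1 was higher, Hk2, a hexokinase that binds the outer membrane (0.56, adjusted p = 0.0391). Among 9 genes listed under MCL1 turnover 1 was higher, Trib1, a pseudokinase that guides ubiquitin ligases (0.83, adjusted p = 0.0141). The ligase gene Huwe1 had -0.16 and the deubiquitinase gene Usp9x 0.04. Whether TRIB1 acts on MCL1 was not tested, so its call is no measure of MCL1 turnover. The 11 p53 targets gave 1 lower call, Bax itself, and their median was -0.13.

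Of 16 survival cytokine receptors and JAK-STAT genes, 2 were higher (median 0.19). They were Stat3, which relays G-CSF and IL-6 signals, at 0.51 (adjusted p = 0.0122) and its target Pim1, a survival kinase, at 0.67 (adjusted p = 0.0272). In the list of 16 FOXO and AKT genes (median 0.20), Pdk1 was higher at 0.39 (adjusted p = 0.0343) and Trem2 was lower. In the mouse Pdk1 is the symbol of a pyruvate dehydrogenase kinase, not of the kinase that activates AKT.

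None of the 15 genes of the NF-kB list was called. Of them, 8 (53.3%) were highest in Trem2 mutant 3, against 20.6% of all genes tested. The share was 29.3% among the 123 listed genes, which include these 15. Tnfaip3, a feedback inhibitor named here after its values were seen, had 736 and 1204 CPM in WT and 1130 and 2345 in the mutant. Nfkbia, the gene of the inhibitor that holds NF-kB in the cytoplasm, had 824 and 1028 CPM in WT and 1201 and 1960 in the mutant. Without Trem2 mutant 1, where 9.98% of all genes were called higher, 6 of the 15 were, among them Tnfaip3 at 1.28 and Nfkbia at 1.09, and Nfkbib was called lower (-0.46, adjusted p = 0.0243). Without Trem2 mutant 3, where 14.2% of all genes were called higher, 2 of the 15 were. The subunit genes Rela (0.08), Rel (0.07) and Nfkb1 (0.14) were not called. The part of this difference between the mutant libraries in the values of Mcl1 and Bcl2a1 was not tested.

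The genes nearest to Mcl1 in pattern were sought among 6432 genes of at least 20 CPM, by the root mean square difference of centred log2 values over the 4 libraries. They were Ptafr, the receptor of platelet-activating factor (0.0268), AI839979 (0.0404) and Rffl (0.0450). For the Bcl2a1 sum they were Ccl4, a chemokine (0.0447), AI839979 (0.0560) and Mcl1 itself (0.0568). Ptafr had 474 and 497 CPM in WT and 538 and 717 in the mutant, and Ccl4 had 75.5 and 86.1 in WT and 81.7 and 130 in the mutant. With 4 libraries these are descriptions.

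Markers of cell types moved with genotype beside all of these results. Summed granulocyte markers were 11255 and 11978 CPM in WT and 40633 and 39695 in the mutant, with 16 of 19 genes higher. Ly6g, which encodes part of the GR1 antigen, had 52 and 66 reads in WT and 1198 and 1143 in the mutant, so this marker of the sort was sparse in WT. The granulocyte receptor gene Csf3r, in contrast, had 1368 and 1435 CPM in WT and 1396 and 1567 in the mutant. The sums of the 2 mutant libraries were close, but single markers differed between them in either direction. Il1b, an inflammatory cytokine gene, had 6153 and 11291 CPM in Trem2 mutant 1 and Trem2 mutant 3, and Ltf, a granule protein gene, had 5340 and 3784.

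Summed monocyte and macrophage markers were 2131 and 2224 CPM in WT and 2749 and 2356 in the mutant (8 of 16 higher). Single genes of this list moved in either direction. Ly6c2 had 26.9 and 24.8 CPM in WT and 378 and 282 in the mutant (log2 fold change 3.67). Csf1r (-0.28), Adgre1 (-0.20) and Cd68 (-0.31) were lower in both mutant libraries but not called. Fibroblast and mural markers were 412 and 458 CPM in WT against 1450 and 904 in the mutant (6 of 9 higher). Among them Fn1 had 175 and 277 CPM in WT and 906 and 400 in the mutant. The mural genes Acta2 (-0.13) and Pdgfrb (0.72) were not called. Eosinophil and mast cell markers were 117 and 118 against 229 and 249 (6 of 9 higher, with Ear1 at 0 reads in both WT libraries). The 6 were eosinophil genes such as Epx (2.41) and Prg2 (2.57). Cpa3 (-0.24), Mcpt8 (-0.36) and Ms4a2 (-0.86), markers of mast cells or basophils, lay below 0 and were not called. Erythroid markers were 17.8 and 40.0 against 73.9 and 183 (3 of 5 higher), with Trem2 mutant 3 the highest. Lymphocyte markers were low, at 51.3 and 54.6 against 35.2 and 31.3 (1 of 7 lower). Epithelial markers were 154 and 161 against 85.8 and 88.4 (1 of 2 lower), nearly all from Cdh1, and endothelial markers 170 and 166 against 162 and 148 (1 of 3 higher, 1 lower). The part of these markers in the values of the BCL2 genes was not tested.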

How the data were processed

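RNA was sequenced after ribosomal RNA depletion, per the labels' protocols, in 2 libraries per genotype. The authors deposited whole-number read counts for each Ensembl gene, without normalization. The submitters' processing notes name the build GRCm38 (mm10), STAR 2.5.2a, FastQC and DESeq2. Sources used here do not name the counting program, its strandedness or the annotation. Every gene in the table had at least 11 reads in all. Of the IDs, 17422 matched GENCODE M21 and 54 did not. One mutant column carries the number 3 where the labels give 2, and was used as a mutant library without a number.

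Counts were analysed in R 4.3.3 with edgeR 4.0.16: filterByExpr, TMM factors of 0.811 to 1.15, and glmQLFit and glmQLFTest (two-sided) with genotype as the term. The common coefficient of biological variation came to 0.106, and there were 2 residual and 5.71 prior degrees of freedom. SE is the log2 fold change over the root of F, and intervals (95%) use 7.71 degrees of freedom. A count of 3 reads corresponds to 0.322 to 0.359 CPM. The fit was tested on simulated counts. Coding sequences, not proteins, of the Bcl2a1 copies were compared.

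The members and lists were chosen with earlier results of these data known. Named were Trem2, the members, the rest of the BCL2 lists, up to 4 called genes of the lowest p per list, and the 3 nearest patterns. Other genes of the lists, such as Apaf1, Xiap, Huwe1, Usp9x, the NF-kB genes and single markers, were picked after their values were seen. Some genes that the rule names are not reported here. Alternatives were RLE, upper-quartile and library-total scaling, no filter, a stricter filter (10 reads in 2 libraries and a mean of 1 CPM), DESeq2 1.42.0, limma-voom (limma 3.58.1), the bias-adjusted fit, leaving out 1655 noncoding and mitochondrial genes, and leaving out each library.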

Additional observations from a re-analysis of the deposited data

How the results depend on the processing

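Among the values of the members and the Bcl2a1 sum under alternatives, 130 kept their direction and side of the threshold, 7 newly passed it, 1 no longer passed and 5 changed sign. The ratios kept their direction with each library left out, and scaling cannot change them. Scaling by library totals alone, which shifts all genes down, gave 650 genes higher and 4365 lower, 2 members lower, both pro-death, 3 listed genes higher and 34 lower. It gave Bcl2l1 -0.12, Bak1 -0.28 and Bcl2l11 -0.29, all of changed sign, and Bid -0.68, now called. DESeq2 called 198 genes lower, and 1 listed gene lower. Limma-voom called 4 listed genes lower. Without noncoding and mitochondrial genes, 1 gene of the NF-kB list was called higher. For these 3 settings the cause was not tested. The other 8 settings besides library totals left Bax between -0.57 and -0.52, with adjusted p from 0.0138 to 0.0271.

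With each library left out in turn, 489 to 2090 genes were higher and 92 to 912 lower. Members called higher ranged from 0 to 4, all pro-survival (0 to 4), and members called lower from 0 to 1, all pro-death (0 to 1). Listed genes ranged from 1 to 27 higher and from 1 to 4 lower, and genes of the NF-kB list from 0 to 6 higher. Log2 fold changes ranged from 0.14 to 0.62 for Mcl1, 0.092 to 0.69 for Bcl2a1a, 0.25 to 0.82 for Bcl2a1b, -0.028 to 0.71 for Bcl2a1d and 0.10 to 0.73 for the Bcl2a1 sum. They ranged from 0.22 to 0.31 for Bcl2l1, -0.21 to -0.18 for Bcl2, -0.63 to -0.44 for Bax, 0.04 to 0.14 for Bak1, -0.10 to 0.29 for Bcl2l11 and -0.34 to -0.28 for Bid. Bcl2a1d changed sign without Trem2 mutant 3 (-0.028) and Bcl2l11 without WT 1 (-0.10).

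No paired analysis was possible because the labels number both genotypes 1 and 2 but 1 mutant column carries the number 3, which matches no label, so that the columns share fewer than 2 numbers. Depth limits Bcl2, with 70 to 89 reads, and Bcl2a1c, with 6 to 15, where counting error alone is large. With 2 libraries a group, 1 library can decide a call.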

Other observations

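Mcl1 is itself a quickly induced gene, and 10 immediate early genes, chosen after values had been seen, were read beside it. Of these, 4 were called higher in the mutant (Egr1, Ier3, Zfp36 and Dusp1), and 5 were highest in Trem2 mutant 3. Over all genes tested, 9.55% were called higher and 20.6% were highest in Trem2 mutant 3. Dusp1, a MAP kinase phosphatase, had 565 and 677 CPM in WT and 1011 and 1673 in the mutant (log2 fold change 1.11, SE 0.219, adjusted p = 0.0164). Egr1, a transcription factor, had 433 and 598 CPM in WT and 1017 and 1472 in the mutant (1.27, SE 0.205, adjusted p = 0.00734). Fos, Fosb, Jun, Junb and Ier2 were highest in Trem2 mutant 1 instead. Jun had 296 and 354 CPM in WT, 520 in Trem2 mutant 1 and 254 in Trem2 mutant 3, the lowest of the 4 libraries. Within this group the 2 mutant libraries therefore differed in either direction.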
